A study of Caenorhabditis elegans with 32 samples.

Results

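The transcripts described here were those of 9 genes of the target of rapamycin (TOR) pathway of C. elegans, 9 of the 46748 genes in the deposited count table. They were taken by name, and no measured value entered the rule, although earlier results of these data were known when the genes were chosen. The genes are raga-1, ragc-1, let-363, daf-15, rsks-1, rheb-1, rict-1, nprl-2 and nprl-3. The study followed DIMT-1, an enzyme that methylates the RNA of the small ribosomal subunit, and asked through which tissues and longevity pathways its loss changes lifespan; raga-1 was one of the genes whose mutants it used for this. The 16 libraries came from the worm strain WBM1339, whose muscle ribosomes carry a FLAG tag. Worms hatched from bleached eggs were moved as L1 larvae to bacteria with dimt-1 RNAi or with the control RNAi (empty vector, EV), and were collected as young adults. For each RNAi there were 4 biological replicates of muscle TRAP (translating ribosome affinity purification, the RNA recovered with the tagged ribosomes) and 4 of total RNA from lysates of whole worms. The groups were therefore TRAP on dimt-1 RNAi, TRAP on EV, total RNA on dimt-1 RNAi and total RNA on EV. The promoter that drives the tag and the other alleles of the strain are not given in the sources used here, and the germline experiment of the same series was not analysed here.

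TOR is a protein kinase that couples growth to nutrients and works in a pair of complexes, TORC1 and TORC2. In mammals, a heterodimer of Rag GTPases brings TORC1 to the lysosome when amino acids are present, the GTPase Rheb switches the kinase on there, and the GATOR1 complex turns the Rag dimer off. Active TORC1 promotes protein synthesis, in part through S6 kinase. In worms, reduced activity of raga-1, let-363, daf-15 or rsks-1 is known to lengthen life. TRAP values measure RNA held by tagged ribosomes and say nothing of kinase activity.

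Each role in this circuit has at least 1 member in the set, and every position below is in the WBcel235 genome. The Rag pair is raga-1 (II:11301359-11302776, plus strand), the counterpart of mammalian RagA and RagB, and ragc-1 (IV:11603613-11604933, minus strand), the counterpart of RagC and RagD. The activating GTPase is rheb-1 (III:9454163-9456030, minus strand). The kinase itself is let-363. Its partners are daf-15 (IV:9386208-9394979, plus strand), the Raptor of TORC1, and rict-1 (II:13098239-13116810, minus strand), the Rictor of TORC2. The S6 kinase is rsks-1 (III:11245120-11252281, plus strand). The GATOR1 counterparts are nprl-2 (IV:7556816-7558761, plus strand) and nprl-3 (IV:8297492-8299843, plus strand). All 9 are protein-coding, and their merged exons cover between 1101 bases in ragc-1 and 8560 bases in let-363.

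The 3 GTPases share a nucleotide-binding loop, the P-loop, and its coding bases are shown because transcripts of this one protein family had different results in the first comparison, where rheb-1 was lower in TRAP and raga-1 and ragc-1 were not called. The 24 bases of each loop were read from WBcel235 on the coding strand, with the last 9 bases in capitals, the codons for a glycine, a lysine and a serine or threonine that close the loop. A loop of this pattern (glycine, 4 residues of any kind, then those 3) was found 1 time in each coding sequence.
raga-1: ggcaaaagtggatccGGCAAGACT
ragc-1: ggacacaagagaagcGGAAAAACT
rheb-1: ggatatcctcatgttGGAAAATCG
The raga-1 loop starts at codon 11 of 312 and lies in one exon (II:11301394-11301417). The ragc-1 loop starts at codon 33 of 338 and is split by an intron (IV:11604756-11604828). The rheb-1 loop starts at codon 20 of 207 and is also split by an intron (III:9455803-9455952).

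Library totals lay between 34794250 and 49782576 counts, so depth did not separate the groups. Muscle marker genes fixed as a list were higher in TRAP for 10 of 10 genes on either RNAi, and with scaling by library size only for 9 of 10, the exception being unc-22 (-0.69 on dimt-1 RNAi and -0.13 on EV). Their summed level was 96335 to 121936 CPM (counts scaled to a common library total) in TRAP on dimt-1 RNAi and 103895 to 131556 CPM in TRAP on EV, against 3709 to 4950 CPM in total RNA on dimt-1 RNAi and 3746 to 4289 CPM in total RNA on EV. The RNAi target, listed as E02H1.1, had 16.6, 19.7, 24.2 and 15.1 CPM in total RNA of replicates 1 to 4 labelled dimt-1 RNAi, against 23.1, 25.8, 25.2 and 22.8 CPM on EV. Replicate 3 labelled dimt-1 RNAi thus lay within the range of EV, and in a principal component analysis of the total RNA it also lay among the EV libraries (-20.2, against -21.3 to -16.1 on EV and 17.1 to 42.8 in the other 3 dimt-1 RNAi libraries). The change of E02H1.1 was -0.33 on the log2 scale (SE 0.12), with an adjusted p of 0.228 in edgeR, and in TRAP it was 0.48 (SE 0.32, adjusted p = 0.794), so the target gene did not separate the groups by this test; reads of the RNAi bacteria's double-stranded RNA could also be counted there. In TRAP, EV replicate 2 and dimt-1 RNAi replicate 3 stood apart from the other 6 libraries on the first component (109 and 96.7, against -58.9 to -1.78). Genes with 1 to 20 counts numbered 204 in that dimt-1 RNAi library and 205 to 535 in the 4 TRAP libraries on EV, against 2525 to 3674 in all other libraries, so low values are not comparable between these libraries and the rest. Results for the RNAi are also given without the lysates that stood apart.

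Raga-1, the Rag GTPase through which amino acids reach TORC1, had overlapping levels in all 4 groups. In TRAP it had 67.6, 72.8, 76.0 and 68.8 CPM in the 4 replicates on dimt-1 RNAi, against 73.6, 65.7, 61.1 and 73.5 CPM on EV. In total RNA it had 72.0, 71.2, 65.9 and 61.8 CPM on dimt-1 RNAi, against 64.9, 64.3, 70.2 and 67.5 CPM on EV. No group lay apart from another, and the highest of the 16 values was the TRAP library of dimt-1 RNAi replicate 3. CPM here and below are scaled by TMM over the 16 libraries, and rest on 1320 to 6028 counts per library for this gene.

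Ragc-1, the partner of raga-1 in the Rag dimer, was the more abundant of the pair. In TRAP it had 106, 120.0, 98.7 and 95.8 CPM on dimt-1 RNAi, against 103, 108, 92.9 and 87.3 CPM on EV. In total RNA it had 87.4, 97.4, 89.3 and 91.1 CPM on dimt-1 RNAi, against 98.5, 95.6, 105 and 94.1 CPM on EV. These groups overlapped as well, with the highest value in TRAP of dimt-1 RNAi replicate 2.

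Rheb-1, the GTPase that activates the kinase, was lower in every TRAP library than in any total RNA library. It had 25.8, 21.9, 18.6 and 14.9 CPM in TRAP on dimt-1 RNAi, and 10.8, 10.6, 17.6 and 17.5 CPM in TRAP on EV. The total RNA libraries held 33.4, 39.3, 34.7 and 30.4 CPM on dimt-1 RNAi, and 40.3, 28.7, 34.3 and 39.7 CPM on EV. Within TRAP, dimt-1 RNAi had the 3 highest values and its replicate 4 lay among the EV libraries.

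Let-363, the TOR kinase, lies at I:5245743-5263424 on the plus strand and had a narrow range in all groups but one. It had 53.2, 54.6, 53.6 and 52.2 CPM in TRAP on dimt-1 RNAi, and 51.01, 42.6, 50.01 and 84.1 CPM in TRAP on EV. In total RNA it had 74.4, 78.7, 84.6 and 73.7 CPM on dimt-1 RNAi, and 74.4, 78.3, 82.0 and 80.2 CPM on EV. The TRAP library of EV replicate 4 stood above 7 of the 8 total RNA libraries, while the other 7 TRAP libraries stood below all of them.

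Daf-15, the Raptor subunit that gives TORC1 its substrates, was also lower in every TRAP library. It had 39.4, 42.5, 29.5 and 36.9 CPM in TRAP on dimt-1 RNAi, and 43.3, 18.3, 46.6 and 33.7 CPM in TRAP on EV. Total RNA held 74.5, 89.8, 88.95 and 80.1 CPM on dimt-1 RNAi, and 86.4, 92.7, 91.1 and 80.1 CPM on EV. The lowest value was in EV replicate 2, one of the TRAP libraries that stood apart.

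Rict-1, the Rictor subunit that marks TORC2, had 29.0, 22.5, 29.5 and 21.005 CPM in TRAP on dimt-1 RNAi, and 7.55, 21.3, 18.2 and 29.3 CPM in TRAP on EV. Its total RNA values were 41.1, 44.98, 41.9 and 46.1 CPM on dimt-1 RNAi, and 42.4, 38.4, 47.0 and 44.5 CPM on EV. TRAP and total RNA did not overlap, and EV replicate 1 was the lowest TRAP library.

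Rsks-1, the S6 kinase downstream of TORC1, had the lowest TRAP level of all. It had 6.12, 11.4, 7.37 and 4.37 CPM in TRAP on dimt-1 RNAi, and 10.3, 2.79, 9.43 and 13.3 CPM in TRAP on EV. Total RNA held 28.6, 31.1, 28.7 and 28.7 CPM on dimt-1 RNAi, and 29.7, 35.4, 38.9 and 35.9 CPM on EV. TRAP and total RNA were far apart, and EV replicate 2 was again the lowest library, with 56 counts.

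The GATOR1 counterparts restrain TORC1. Their ranges per kb of exon overlapped in every group, but in CPM nprl-2 lay above nprl-3 without overlap on EV. Nprl-2 had 55.1, 46.8, 29.6 and 46.3 CPM in TRAP on dimt-1 RNAi, and 53.2, 51.4, 53.2 and 45.2 CPM in TRAP on EV, against 47.5 to 53.9 CPM in total RNA on dimt-1 RNAi and 53.2 to 58.3 CPM in total RNA on EV. Nprl-3 had 37.2, 42.2, 21.03 and 38.6 CPM in TRAP on dimt-1 RNAi, and 40.8, 29.96, 25.7 and 24.8 CPM in TRAP on EV, against 44.1 to 53.1 CPM in total RNA on dimt-1 RNAi and 45.1 to 47.4 CPM in total RNA on EV. Both were lowest among the dimt-1 RNAi TRAP libraries in replicate 3. The nprl-2 value carries a limit, since 25.9% of its exon bases are shared with F49E8.8 on the same strand and 36 bases with ima-3 on the opposite strand. F49E8.8 is not among the genes of the count table, so it has no count of its own there.

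**Figure D1:**
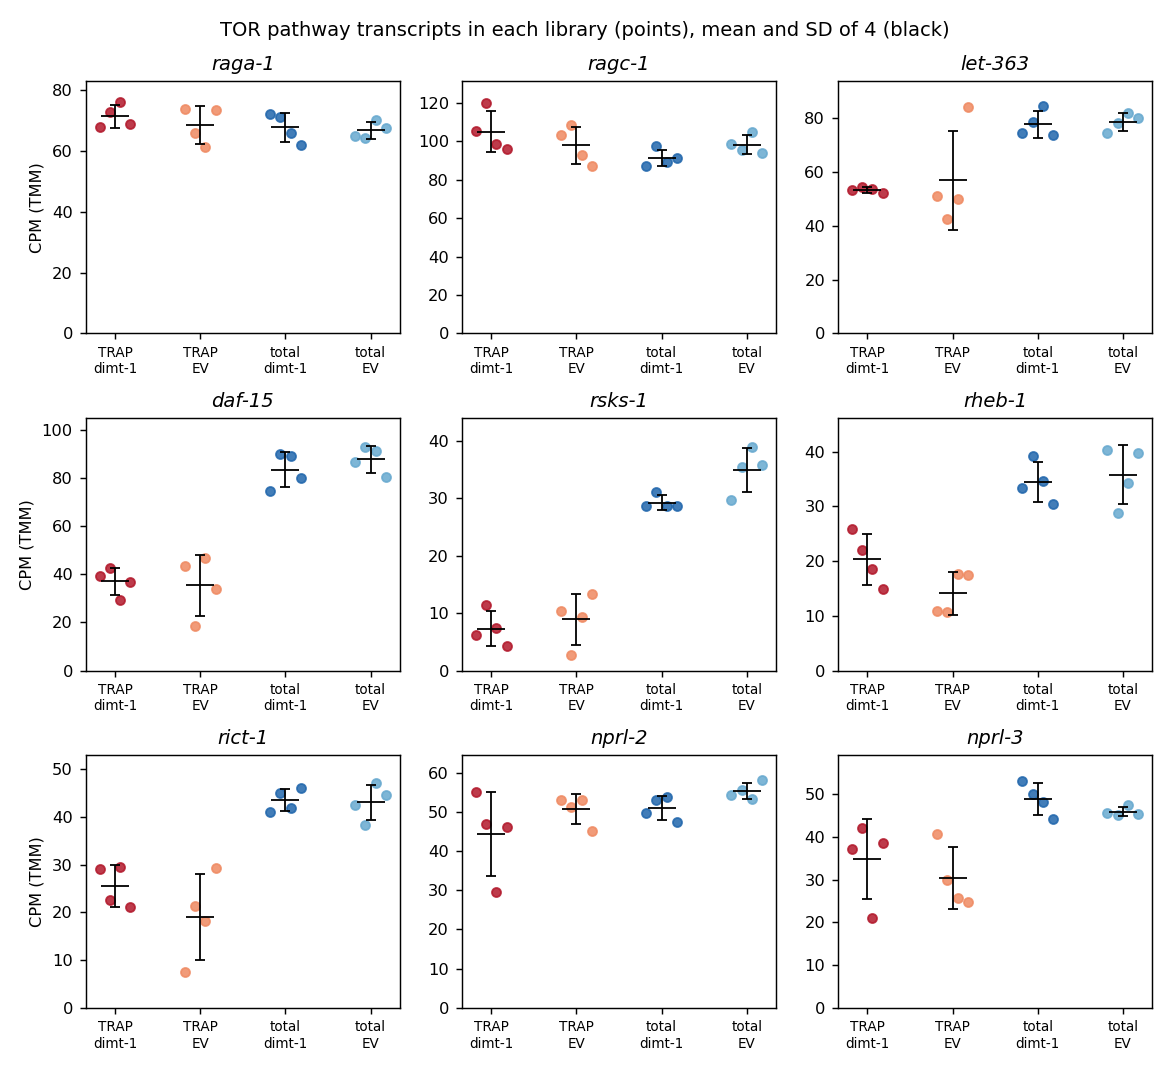
Level of each of the 9 TOR pathway transcripts (CPM scaled by TMM, vertical axis from 0) in the 4 groups of 4 libraries, with points for libraries and black bars for mean and SD. The libraries of raga-1 and of ragc-1 overlap between all groups, while rsks-1 had 2.79 to 13.3 CPM in the TRAP libraries and 28.6 to 38.9 CPM in the total RNA libraries.

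Per base of exon, the Rag pair led in every group. Ragc-1 averaged 95.4 ± 9.81 CPM per kb in TRAP on dimt-1 RNAi, 88.96 ± 8.71 in TRAP on EV, 82.9 ± 3.92 in total RNA on dimt-1 RNAi and 89.3 ± 4.43 in total RNA on EV (SD, n = 4). Raga-1 came next, with 56.3 ± 3.02, 54.1 ± 4.87, 53.5 ± 3.79 and 52.7 ± 2.12 CPM per kb in the same groups (SD, n = 4), and its libraries overlapped with neither ragc-1 nor the gene below it in any group. In total RNA on EV the next 3 were nprl-2 (30.5 CPM per kb), rheb-1 (29.98) and nprl-3 (28.5), whose ranges overlapped, then daf-15 (14.9), rsks-1 (11.5), let-363 (9.20) and rict-1 (8.57). Let-363 and rict-1, the kinase and its TORC2 partner, overlapped there. In TRAP on dimt-1 RNAi the last place was taken by rsks-1, at 2.40 CPM per kb, apart from rict-1 (5.08), and daf-15 (6.30) and let-363 (6.24) overlapped. In TRAP on EV the ranges of rsks-1 (2.94), rict-1 (3.80), daf-15 (6.03) and let-363 (6.65) overlapped from each to the next. The top level was 39.7 times the bottom one in TRAP on dimt-1 RNAi and 30.3 times in TRAP on EV, against 9.57 times in total RNA on dimt-1 RNAi and 10.4 times in total RNA on EV.

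**Figure D2:**
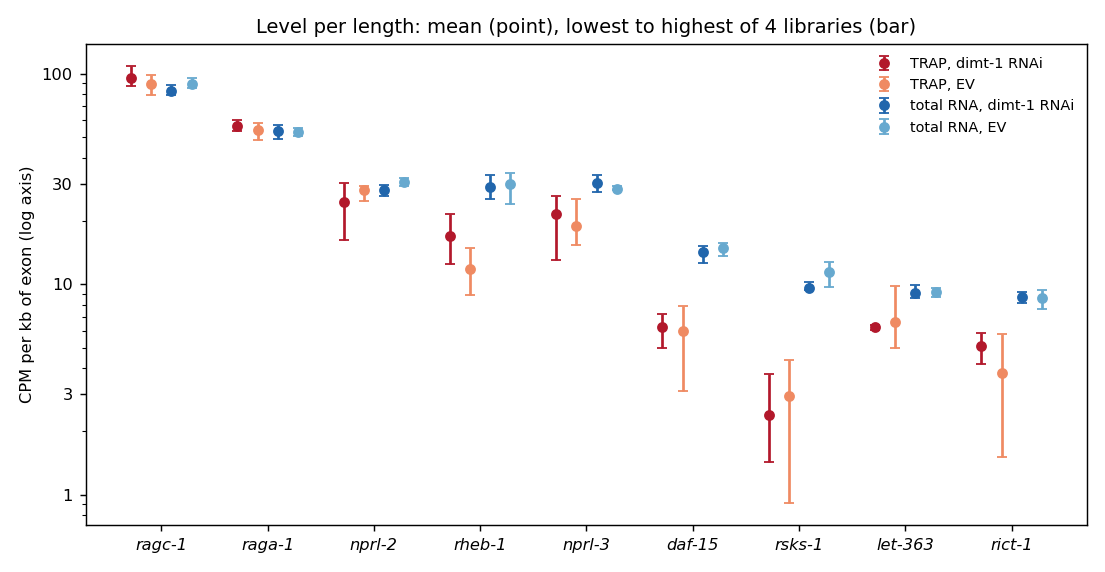
Level per length (CPM per kb of merged exons, log axis) of the 9 transcripts, as the mean of 4 libraries (points) with the lowest and highest library (bars), ordered by total RNA on EV. Ragc-1 and raga-1 lie above the rest in all 4 groups, and the TRAP points of rsks-1 fall to 2.40 and 2.94 CPM per kb.

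The spread among replicates was wider in TRAP. The coefficient of variation had a median over the 9 members of 17.2% in TRAP on dimt-1 RNAi and 27.8% in TRAP on EV, against 6.42% in total RNA on dimt-1 RNAi and 4.96% in total RNA on EV. The member counts were also lower in TRAP, at 99 to 3256 per library on dimt-1 RNAi and 56 to 2760 on EV, against 1934 to 7598 and 1673 to 8171 in total RNA on dimt-1 RNAi and EV. The part of depth in this spread was not tested.

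The first comparison asked which members were held by muscle ribosomes at levels other than those in the whole worm. On dimt-1 RNAi, 5 of the 9 members were lower in muscle TRAP than in total RNA and 0 were higher, where 10.9% of the 14785 genes tested were lower, 17.2% higher and 28.2% called in all (edgeR quasi-likelihood test, adjusted p under 0.05). The 5 were rsks-1, daf-15, rict-1, rheb-1 and let-363. On EV, 5 of 9 were lower and 0 were higher, where 21.9% of the 13778 genes tested were lower, 17.6% higher and 39.5% called in all. These were rsks-1, rheb-1, daf-15, rict-1 and nprl-3, so that 4 genes were called on both. The median log2 change of the 9 members was -0.54 on dimt-1 RNAi and -0.60 on EV, beside -0.14 and -0.26 over all genes tested. The study's TRAP methods, given for its germline strain, draw total RNA and TRAP from one lysate. The labels do not state this for the muscle libraries. With the replicate number as a block, 6 of 9 were lower on dimt-1 RNAi and 6 of 9 on EV, where 11.7% and 18.0% of all genes were lower. All 9 passed the filter on low counts in each comparison. On EV, 205 to 535 genes had 1 to 20 counts in a TRAP library, against 2846 to 3423 in a total RNA library. The part of this difference in the shares of all genes was not tested. Since TRAP came from muscle and total RNA from whole worms, tissue and ribosome binding cannot be told apart in this comparison, nor can fewer cells of a type and less RNA per cell.

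Rsks-1 had the largest difference of the members: its TRAP level was 0.251 of the total RNA level on dimt-1 RNAi (log2 change -1.99, SE 0.27, adjusted p = 0.00012) and 0.257 on EV (-1.96, SE 0.38, adjusted p = 0.0023). Daf-15 was lower, with log2 changes of -1.17 on dimt-1 RNAi (SE 0.13, adjusted p = 2.9e-05) and -1.30 on EV (SE 0.24, adjusted p = 0.0018). For both genes every TRAP library was below every total RNA library. Rheb-1 was lower as well, at -0.76 on dimt-1 RNAi (SE 0.18, adjusted p = 0.0076) and -1.34 on EV (SE 0.23, adjusted p = 0.00096), again without overlap. Rict-1 followed, with -0.77 on dimt-1 RNAi (SE 0.14, adjusted p = 0.0017) and -1.18 on EV (SE 0.33, adjusted p = 0.016). Each of these 4 kept its call and its direction in 15 of 15 alternatives on each RNAi.

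The kinase and nprl-3 each passed the test without the block on one RNAi only and with the block on both, and the difference between the RNAi conditions was not called for either in the interaction test described further on. Let-363 changed by -0.54 on dimt-1 RNAi (SE 0.10, adjusted p = 0.001), where the groups did not overlap, and by -0.47 on EV (SE 0.19, adjusted p = 0.081), or -0.52 on EV with the block (SE 0.16, adjusted p = 0.023). The single high TRAP library, EV replicate 4, moved the EV value most: without it the change on EV was -0.69 (SE 0.10, adjusted p = 0.0009), and over all alternatives the adjusted p on EV ranged between 6.28e-05 and 0.21, under 0.05 in 4 of 15. Nprl-3, a GATOR1 counterpart, changed by -0.49 on dimt-1 RNAi (SE 0.19, adjusted p = 0.084), or -0.53 with the block (SE 0.17, adjusted p = 0.048), and by -0.60 on EV (SE 0.16, adjusted p = 0.013). On dimt-1 RNAi its change was -0.65 without TRAP replicate 2 (adjusted p = 0.049) and -0.32 without TRAP replicate 3 (adjusted p = 0.058), and its adjusted p over the alternatives ranged between 5.02e-06 and 0.188, under 0.05 in 4 of 15. Nprl-2 was not called, with -0.20 on dimt-1 RNAi (SE 0.17, adjusted p = 0.49) and -0.13 on EV (SE 0.10, adjusted p = 0.36).

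The Rag pair, like nprl-2, was not called on either RNAi with TMM scaling. Raga-1 had a TRAP to total RNA change of 0.08 on dimt-1 RNAi (SE 0.10, adjusted p = 0.679) and 0.03 on EV (SE 0.09, adjusted p = 0.849), and 60.1% and 60.6% of all genes tested lay at or below it. Ragc-1 had 0.21 on dimt-1 RNAi (SE 0.10, adjusted p = 0.193), with a ratio above 1 in 4 of 4 replicate numbers, and -0.01 on EV (SE 0.09, adjusted p = 0.959). These changes depend on how the libraries were scaled. The TMM factors were 0.525 to 0.692 in TRAP and 1.56 to 1.78 in total RNA, and with library size alone the median of all genes moved to -1.56 on dimt-1 RNAi and -1.68 on EV. On that scale all 9 members were lower in TRAP on both RNAi conditions, where 51.7% and 52.7% of all genes were lower, but raga-1 (-1.35 and -1.40) and ragc-1 (-1.22 and -1.45) stayed above the median of all genes and rsks-1 (-3.43 and -3.36) far below it.

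**Figure D3:**
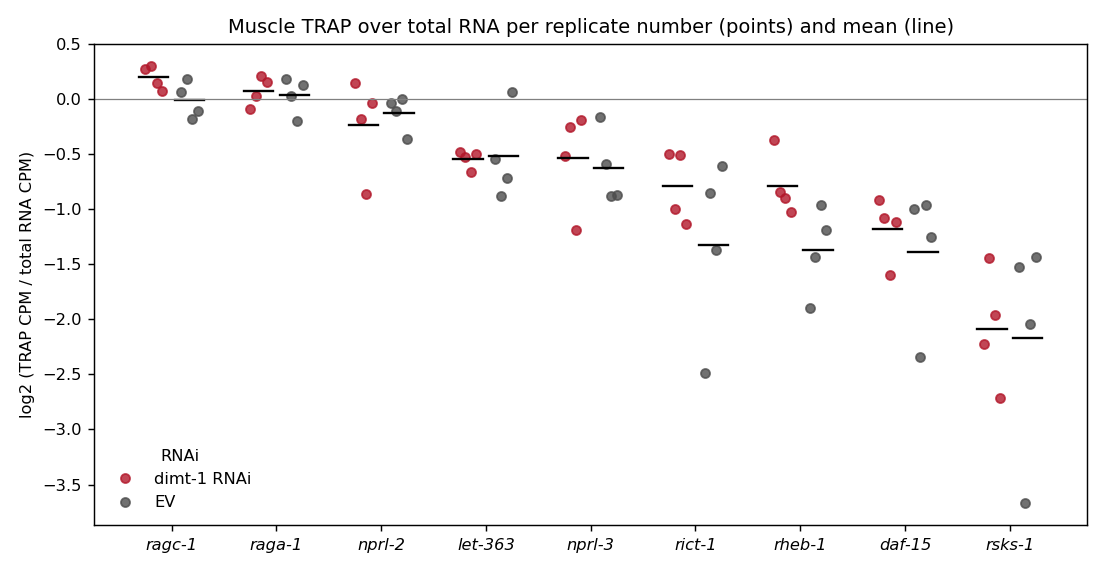
Log2 ratio of TRAP to total RNA (CPM scaled by TMM) for each replicate number on dimt-1 RNAi (red, left) and EV (grey, right), with the mean as a line; genes are ordered by mean ratio. Ragc-1 and raga-1 lie around 0, while the replicates of rsks-1 lie between -3.67 and -1.43.

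Ratios of 2 members within one library do not depend on scaling between libraries. Raga-1 over ragc-1, per kb, averaged 0.595 ± 0.065 in TRAP on dimt-1 RNAi, 0.613 ± 0.088 in TRAP on EV, 0.646 ± 0.052 in total RNA on dimt-1 RNAi and 0.591 ± 0.023 in total RNA on EV (SD, n = 4), with overlapping ranges. Raga-1 over rsks-1 was 15.3 to 37.96 in TRAP on dimt-1 RNAi and 13.3 to 56.8 in TRAP on EV, against 5.19 to 6.06 in total RNA on dimt-1 RNAi and 4.34 to 5.26 in total RNA on EV. TRAP and total RNA did not overlap in this ratio between the Rag GTPase and the S6 kinase. The Raptor to kinase ratio, daf-15 over let-363, was 0.799 to 1.13 in TRAP on dimt-1 RNAi and 0.583 to 1.36 in TRAP on EV, against 1.46 to 1.66 in total RNA on dimt-1 RNAi and 1.45 to 1.72 in total RNA on EV, again without overlap. The Rictor to kinase ratio, rict-1 over let-363, was 0.686 to 0.937 in TRAP on dimt-1 RNAi and 0.252 to 0.852 in TRAP on EV, against 0.844 to 1.07 in total RNA on dimt-1 RNAi and 0.834 to 0.977 in total RNA on EV, with overlap on both. Raptor over Rictor, daf-15 over rict-1, also overlapped on both, at 0.852 to 1.61 in TRAP on dimt-1 RNAi and 0.734 to 4.89 in TRAP on EV, against 1.48 to 1.81 and 1.54 to 2.06 in total RNA. For the 2 GATOR1 counterparts, nprl-3 over nprl-2 was 0.545 to 0.863 in TRAP on EV against 0.875 to 1.00 in total RNA on EV, while on dimt-1 RNAi the ranges were 0.761 to 1.01 in TRAP and 1.00 to 1.20 in total RNA and overlapped.

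Markers of other tissues moved between the same groups. Of the 6 germline markers, 5 were lower in TRAP on dimt-1 RNAi and 6 on EV, with median log2 changes of -0.51 and -0.91, and their summed level was 617 to 839 CPM in TRAP on dimt-1 RNAi and 546 to 756 CPM in TRAP on EV, against 1252 to 1390 CPM and 1290 to 1383 CPM in total RNA. Of 6 intestine markers, 1 was lower on dimt-1 RNAi and 3 on EV, with sums of 209 to 261 CPM and 157 to 247 CPM in TRAP, against 283 to 375 CPM and 321 to 379 CPM in total RNA. No germline or intestine marker was at 0 in all 4 TRAP libraries of a group; the neuron marker rgef-1 and the sperm marker spe-9 were at 0 in all 4 TRAP libraries on EV. Of 6 neuron markers 1 was higher and 1 lower on dimt-1 RNAi and likewise on EV, where 5 could be tested. The neuron sums on dimt-1 RNAi were 168 to 309 CPM in TRAP against 185 to 201 CPM in total RNA. On EV they were 214 to 262 CPM in TRAP, above the 166 to 202 CPM in total RNA. Of 5 hypodermis markers 1 was lower on dimt-1 RNAi, and 2 of the 4 tested on EV, while 0 of 8 sperm markers on dimt-1 RNAi and 0 of 7 on EV were called. With library size alone no marker of these 5 tissues was higher, and on dimt-1 RNAi and EV the lower ones numbered 6 and 6 for germline, 6 and 5 for intestine, 6 and 5 for neurons, 2 and 2 for hypodermis and 5 and 1 for sperm. The part of these tissues in the lower TRAP values of the 5 members was not tested.

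The second comparison asked whether dimt-1 RNAi changed the transcripts of the pathway. In total RNA, 0 of the 9 members were called, where 0% of the 15441 genes tested were called by edgeR. An unadjusted p under 0.05 was reached by 2504 genes. DESeq2 called 647 genes (4.19%), limma voom with library quality weights 1601 (10.4%) and edgeR without the filter 346 (1.67%), none of them a member. Rsks-1 was the one member with an unadjusted p under 0.05, with a log2 change of -0.22 (SE 0.09, unadjusted p = 0.0264, adjusted p = 0.244). Its total RNA values overlapped, since EV replicate 1 (29.7 CPM) lay below dimt-1 RNAi replicate 2 (31.1 CPM), and its adjusted p over 15 alternatives ranged between 0.159 and 0.47. Nprl-3 had 0.13 (SE 0.07, adjusted p = 0.374) and raga-1 had 0.06 (SE 0.07, adjusted p = 0.695). The remaining 6 members lay between -0.08 and 0.06. When the total RNA library of dimt-1 RNAi replicate 3 was left out, 2379 of 15845 genes were called (6.99% higher and 8.03% lower) and still 0 of the 9 members, with rsks-1 at -0.20 (SE 0.09, adjusted p = 0.178) and raga-1 at 0.09 (SE 0.07, adjusted p = 0.471). None of 8 sperm markers was called between the RNAi conditions, but their summed level in total RNA was 117, 67.3, 29.3 and 136 CPM in replicates 1 to 4 on dimt-1 RNAi, against 26.1 to 32.7 CPM on EV. Replicate 3 again lay within the range of EV, and the part of sperm transcripts in the member values was not tested.

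In muscle TRAP, 0 of the 9 members were called on dimt-1 RNAi against EV, where 0% of the 12164 genes tested were called by edgeR. An unadjusted p under 0.05 was reached by 976 genes. DESeq2 called 164 genes (1.35%), limma voom with library quality weights 128 (1.05%) and edgeR without the filter 177 (0.988%), none of them a member. Rheb-1 had an estimate of 0.50 on the log2 scale (SE 0.30, adjusted p = 0.751), with 20.3 ± 4.67 CPM on dimt-1 RNAi and 14.1 ± 3.93 CPM on EV (SD, n = 4). Rict-1 had 0.40 (SE 0.34, adjusted p = 0.915), rsks-1 -0.31 (SE 0.55, adjusted p = 0.994), nprl-2 -0.21 (SE 0.20, adjusted p = 0.94) and nprl-3 0.18 (SE 0.25, adjusted p = 0.983). These estimates moved when 1 library was left out: rsks-1 was -0.63 without EV replicate 2 and -0.05 without EV replicate 4, rict-1 was 0.14 without EV replicate 1 and 0.70 without EV replicate 4, nprl-2 was -0.34 without dimt-1 RNAi replicate 1 and -0.05 without dimt-1 RNAi replicate 3, and nprl-3 was 0.08 without dimt-1 RNAi replicate 2 and 0.36 without dimt-1 RNAi replicate 3. Rheb-1 lay between 0.36 and 0.63, so which member had the largest estimate depended on the libraries kept. The standard errors of rsks-1, rict-1 and rheb-1 were the widest. Raga-1 had 0.04 (SE 0.15, adjusted p = 0.9998), and ragc-1, daf-15 and let-363 lay between -0.11 and 0.08. Both the EV replicate 2 and dimt-1 RNAi replicate 3 lysates were then left out, a choice made after the data were seen. In that fit 0 of 9 were called, where 0.254% of 12983 genes were called. Rsks-1 had -0.64 (SE 0.44), rheb-1 0.40 (SE 0.30), rict-1 0.35 (SE 0.43), nprl-3 0.32 (SE 0.22) and raga-1 -0.05 (SE 0.14). The TRAP libraries kept had 310 to 535 genes with 1 to 20 counts on EV and 3248 to 3674 on dimt-1 RNAi. This fit therefore cannot tell the RNAi apart from that difference between libraries. With all TRAP libraries kept, only dimt-1 RNAi replicate 3 (204 such genes) lay near the EV libraries (205 to 535). The main fit therefore carries much of the same limit.

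The third comparison, the interaction of fraction and RNAi over the 16 libraries, asked whether TRAP relative to total RNA, the study's measure of translation efficiency, differed between dimt-1 RNAi and EV. It called 0 of the 9 members, where 0% of the 15897 genes tested were called by edgeR, with 2183 at an unadjusted p under 0.05 and 330 (2.08%) called by DESeq2. Rheb-1 had a value of 0.58 (SE 0.29, unadjusted p = 0.064, adjusted p = 0.405), which is the difference between its TRAP to total RNA changes of -0.76 on dimt-1 RNAi and -1.34 on EV. Its log2 ratios by replicate number were -0.37, -0.84, -0.90 and -1.03 on dimt-1 RNAi and -1.89, -1.43, -0.96 and -1.18 on EV, which overlapped. Rict-1 had 0.40 (SE 0.36, adjusted p = 0.77), and 0.15 without EV replicate 1 and 0.68 without EV replicate 4, ragc-1 0.21 (SE 0.15, adjusted p = 0.656) and daf-15 0.13 (SE 0.28, adjusted p = 0.962). Let-363 had -0.08 (SE 0.22, adjusted p = 0.976) and nprl-3 0.11 (SE 0.26, adjusted p = 0.972), so their changes were not shown to differ between the RNAi conditions. Raga-1 had 0.04 (SE 0.15, adjusted p = 0.989). Without the EV replicate 2 and dimt-1 RNAi replicate 3 lysates 0 of 9 were called, where 1.33% of 16184 genes were. The TRAP libraries kept there differed between the RNAi conditions in genes with few counts, as stated above, so this fit has the same limit. The interaction over the 16 libraries has it too, apart from dimt-1 RNAi replicate 3. Across all genes the median of this interaction was 0.16, and 0.11 across the 9 members. The 2 comparisons above share libraries with this one and are not separate evidence.

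**Figure D4:**
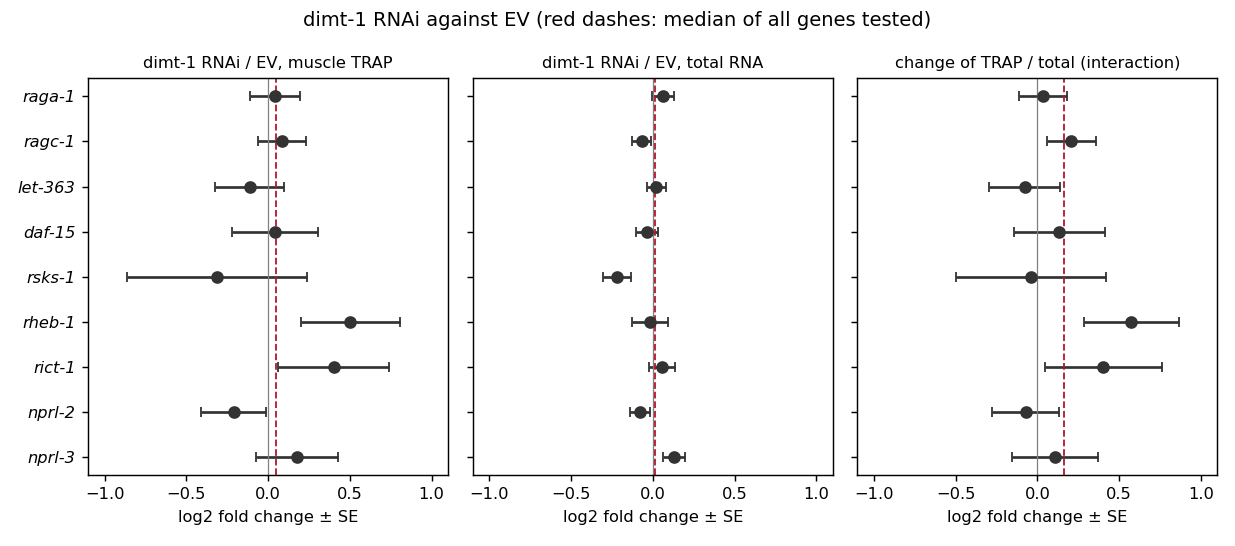
Log2 change on dimt-1 RNAi relative to EV with its SE for the 9 members, in muscle TRAP (left), in total RNA (middle) and in TRAP relative to total RNA (right), with the median of all genes tested as a dashed line. No member was called in any panel, and the bars are narrowest in total RNA, where the values span -0.22 to 0.13.

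Other genes of the pathway, from lists fixed by name, moved in both directions between TRAP and total RNA and were not called between dimt-1 RNAi and EV. Of 13 further components and regulators, 3 were higher and 5 lower in TRAP on dimt-1 RNAi, and 2 were higher and 6 lower on EV, beside 17.2% higher and 10.9% lower of all genes on dimt-1 RNAi and 17.6% and 21.9% on EV. Of 12 genes downstream of TOR, 3 were higher and 3 lower on dimt-1 RNAi, and 6 were higher and 3 lower on EV. With scaling by library size alone the counts were 0 higher and 12 lower, then 0 and 13, for the components, and 1 higher and 10 lower, then 1 and 9, for the downstream genes, where 51.7% and 52.7% of all genes were lower. In the 2 RNAi comparisons and in the interaction, 0 genes of both lists were called.

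Among the downstream genes, ife-2, an eIF4E cap-binding protein, had 86.1 to 110.4 CPM in TRAP and 20.9 to 25.3 CPM in total RNA on dimt-1 RNAi, a log2 change of 2.15 (SE 0.12, adjusted p = 6.3e-08), and 1.90 on EV (SE 0.10, adjusted p = 9.25e-08). It was higher with library size alone as well, at 0.72 and 0.47. Unc-51, the ULK kinase that starts autophagy, had changes of 1.38 on dimt-1 RNAi and 1.49 on EV, which became -0.04 and 0.04 with library size alone. Akt-2, a kinase of insulin signalling, was higher in TRAP on EV, at 1.20 (SE 0.27, adjusted p = 0.0046), but at -0.24 with library size alone, and on dimt-1 RNAi it had 0.50 (SE 0.32, adjusted p = 0.321). Sgk-1, a kinase downstream of TORC2, was lower on dimt-1 RNAi, at -1.07 (SE 0.32, adjusted p = 0.026), whereas on EV it had -0.39 (SE 0.50, adjusted p = 0.646) and its groups overlapped. The interaction was not called for akt-2 (adjusted p = 0.564) or sgk-1 (adjusted p = 0.786). Drr-2, a translation factor gene, was lower on both, at -0.68 on dimt-1 RNAi (SE 0.14, adjusted p = 0.0026) and -0.60 on EV (SE 0.11, adjusted p = 0.0017).

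Among the regulators, sesn-1, the sestrin gene, had 36.6 to 47.8 CPM in TRAP and 17.8 to 20.3 CPM in total RNA on dimt-1 RNAi, a change of 1.19 (SE 0.14, adjusted p = 4.1e-05), which became -0.24 with library size alone, and 0.92 on EV (SE 0.17, adjusted p = 0.0019). Flcn-1, the folliculin counterpart that acts on the Rag dimer in mammals, was lower, at -0.99 on dimt-1 RNAi (SE 0.24, adjusted p = 0.0086) and -1.005 on EV (SE 0.15, adjusted p = 0.00043). Lmtr-5, a subunit of the Ragulator that anchors the Rag dimer in mammals, was lower on EV, at -1.25 (SE 0.24, adjusted p = 0.0021), and on dimt-1 RNAi had -0.39 (SE 0.22, adjusted p = 0.242) with overlapping groups; its interaction was not called (0.85, SE 0.34, adjusted p = 0.264). Npp-18, the Seh1 nucleoporin, was lower on both, at -0.65 on dimt-1 RNAi (SE 0.11, adjusted p = 0.0011) and -0.92 on EV (SE 0.18, adjusted p = 0.0025).

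Of 10018 genes with a mean of at least 100 counts, the 5 whose log2 CPM followed raga-1 most closely over the 16 libraries were C07A9.9 (Pearson r = 0.79), nhr-20 (0.75), C08H9.16 (0.75), F18H3.4 (0.75) and ZK973.11 (0.74). Within the 8 total RNA libraries the same coefficients were 0.89, 0.58, 0.03, 0.74 and 0.21, and within the 8 TRAP libraries 0.87, 0.86, 0.99, 0.72 and 0.88. The points share libraries, depth and scaling, and the likeness of C08H9.16 and ZK973.11 rested on TRAP. As the highest of 10018 coefficients, these 5 were picked from the same libraries. How many genes would reach such values by chance was not tested. Among the members, the coefficient of raga-1 over 16 libraries lay between -0.51 with nprl-2 and 0.22 with ragc-1, but its order differed within fractions: in the 8 total RNA libraries it was 0.85 with nprl-3, 0.14 with ragc-1 and 0.10 with nprl-2, and in the 8 TRAP libraries 0.46 with let-363, 0.10 with ragc-1 and -0.61 with nprl-2. Over 16 libraries rsks-1 had 0.94 with daf-15 and 0.90 with let-363, 2 genes that share its lower level in TRAP. Within the 8 total RNA libraries the coefficients of rsks-1 were 0.44 and 0.45, and within the 8 TRAP libraries 0.70 and 0.67.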

How the data were processed

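The values deposited for the 16 muscle-experiment libraries, made with a stranded poly(A) kit, were raw gene counts that the authors had not normalized; the submitters' processing notes name STAR 2.7.2b, and the build and annotation used for these libraries are not given in the sources used here. Of the 46748 genes, 43693 were given a symbol; 0 columns were left unused, and the 16 germline samples were not analysed here. From 78.1 to 90.0% of the counts from 1 to 20 were even; if mates were counted separately, fragments number fewer than counts. Groups and replicate numbers came from the labels. The study's TRAP methods, given for its germline strain, draw total RNA and TRAP from one lysate. A number shared by these fractions within an RNAi was therefore read as a lysate, which the labels do not state. Same-numbered deviations correlated at 0.08 to 0.31 on dimt-1 RNAi but -0.01 to 0.02 on EV. Between dimt-1 RNAi and EV (-0.11 to 0.09) numbers were not read as pairs.

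Counts were tested with edgeR 4.0.16 (filterByExpr, TMM, quasi-likelihood test) in R 4.3.3 over all genes, with Benjamini-Hochberg adjustment and calls under 0.05. Levels are TMM-scaled CPM over the 16 libraries, divided by WBcel235 merged exon length where genes are compared. P-values measure the spread between these 4 replicates per group. The SE of an edgeR change was back-calculated as the absolute log2 change divided by the square root of the F statistic. The scripts were tested on simulated counts in which 200 genes, drawn from those above a minimum mean count, changed by 2 on the log2 scale. Of these, 90.5% were recovered for the RNAi in total RNA, 63.5% in muscle TRAP and 57% in the interaction. Between fractions the share was 69% on dimt-1 RNAi and 61.5% on EV, so an uncalled gene is not shown to be unchanged. Smaller changes and a difference in composition between fractions were not simulated. The shares therefore do not give the power for changes as small as those estimated for the members on the RNAi. Named were the 9 members, E02H1.1, up to 3 called pathway genes per direction and comparison whose libraries do not overlap, and the 5 genes most like raga-1. The members and lists were chosen with earlier results of these data known. Alternatives were DESeq2 1.42.0 and its size factors, library size only, no filter, a minimum of 10 counts, limma 3.58.1 voom with quality weights, replicate blocks, leaving out libraries and, for lengths, the longest transcript.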

Additional observations from a re-analysis of the deposited data

Results flagged for a closer look

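In total RNA on dimt-1 RNAi, the rsks-1 level of replicate 2, 31.1 CPM, stood apart from the other 3 libraries, which lay at 28.6 to 28.7 CPM; the gap to the nearest of them took up most of the range of the group. This was 1 of 40 groups of 4 libraries examined in this way, and chance flags about 1 in 20 such groups.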

How the results depend on the processing

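With library size only, 9 members were called in TRAP against total RNA on dimt-1 RNAi and 9 on EV, where 59.9% and 61.4% of all genes were called. Under that scaling the changes of raga-1 (-1.35 on dimt-1 RNAi, -1.40 on EV) and of ragc-1 on dimt-1 RNAi (-1.22) turned negative. In total RNA on dimt-1 RNAi against EV, daf-15 (0.0043) and rheb-1 (0.022) turned positive with it. Ragc-1 on EV turned positive with DESeq2's size factors (0.11), DESeq2 (0.11) and at least 10 counts in every library (0.057). In TRAP on dimt-1 RNAi against EV, raga-1 was -0.0027 with voom and -0.046 without the EV replicate 2 and dimt-1 RNAi replicate 3 lysates, and daf-15 was -2.8e-05 with DESeq2's size factors and -0.11 without those lysates. In the interaction, raga-1 was -0.11 with DESeq2's size factors, -0.11 with DESeq2, -0.068 with at least 10 counts and -0.0080 without those lysates; nprl-3 was -0.040, -0.040 and -0.0068 with the first 3; rsks-1 was 0.037 with the lysate as a replicate block; and nprl-2 was 0.11 with voom and 0.11 without those lysates. None of these members was called, except with library size only between fractions; the cause was not tested beyond the scaling itself.

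Leaving out 1 library or lysate turned the sign of uncalled changes in these ranges. In total RNA on dimt-1 RNAi against EV they were -0.0067 to 0.035 for let-363, -0.077 to 0.00045 for daf-15 and -0.11 to 0.047 for rheb-1. In TRAP they were -0.0050 to 0.088 for raga-1, -0.25 to 0.15 for let-363 and -0.20 to 0.21 for daf-15. For ragc-1 between fractions on EV they were -0.035 to 0.072. In the interaction they were -0.037 to 0.088 for raga-1, -0.19 to 0.17 for let-363, -0.11 to 0.27 for daf-15, -0.34 to 0.21 for rsks-1 and -0.27 to 0.11 for nprl-2.

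With the replicate number as a block, 6 members were called between fractions on dimt-1 RNAi, nprl-3 being added (-0.53, adjusted p = 0.048), and 6 on EV, let-363 being added (-0.52, adjusted p = 0.023), against 5 and 5 without it, where 28.5% and 34.0% of all genes were called in either direction; 0 members were called in the other 3 comparisons, where the block called 1, 0 and 0 genes. The block changed no other member's call. The count of members called stayed at 0 under every alternative run in the 3 comparisons that involve the RNAi. The TRAP counts of rsks-1, 56 to 412 per library, limit its precision. Levels per kb moved by less than the spread of replicates with the longest transcript as length.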
